A study of Mus musculus with 2 samples.

Results

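The 9 genes described here encode the pore-forming subunits of AMPA and kainate receptors, the glutamate-gated channels *Gria1* to *Gria4* (GluA1 to GluA4) and *Grik1* to *Grik5* (GluK1 to GluK5). They were taken by gene symbol from 55573 gene rows. The symbols gave 10 rows, because 2 rows carry the symbol *Grik2*. One of these is a processed pseudogene that GENCODE release M21 names *C130030K03Rik*, and it was left out.

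Hippocampal RNA from 1 library of *Cdh5-CreERT2;CDK5f/f* mice given Tamoxifen (K1-L, the mutant library) and 1 library of untreated *CDK5f/f* mice (C1-L, the control library) was sequenced. Both are on the C57BL/6 strain and both carry the floxed *CDK5* allele. Only the mutant carries Cre, which is inducible by tamoxifen and driven by the endothelial *Cdh5* promoter. The tissue label is hippocampus, while the design text speaks of its CA1 region, and the labels give neither the age nor the number of mice behind a library. *Xist*, which is expressed from the inactive X chromosome of females, had 34 counts in the mutant library and 15070 in the control library, while Y-linked *Ddx3y* had 771 counts in the mutant library and 0 in the control library. The study sequenced this tissue in search of molecular changes that accompany the memory impairment of these mice. Genotype, tamoxifen and sex cannot be told apart in these data. Markers of all hippocampal fields were present. Those of CA1 pyramidal cells summed to 182 FPKM in the mutant library and 171 FPKM in the control library, those of CA2 to 135 FPKM in the mutant library and 122 FPKM in the control library, and CA3 and dentate markers were also found.

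AMPA receptors are tetramers that carry most fast excitatory transmission between hippocampal neurons. GluA1 and GluA2 are known as the main subunits of pyramidal cells, and the amount of GluA2 sets how readily calcium enters through the channel. Kainate receptors are also tetramers and are known both at mossy fibre synapses and on interneurons. GluK1 to GluK3 form channels on their own and bind kainate with lower affinity, while GluK4 and GluK5 bind it with higher affinity and need a low-affinity partner to form a working channel.

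The genes are alike at the site that decides calcium entry. All 9 encode a glutamine codon in the pore loop, known as the Q/R site. In *Gria2* transcripts, and in part of the *Grik1* and *Grik2* transcripts, the editing enzyme ADAR2 is known to recode it to arginine. The windows shown are the 45 coding bases around that codon, read 5′ to 3′ on the coding strand from GENCODE M21 transcripts (GRCm38), with the glutamine codon in capitals.
Gria1: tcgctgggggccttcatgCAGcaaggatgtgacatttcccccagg
Gria2: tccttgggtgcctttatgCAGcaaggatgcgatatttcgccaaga
Gria3: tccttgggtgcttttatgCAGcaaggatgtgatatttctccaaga
Gria4: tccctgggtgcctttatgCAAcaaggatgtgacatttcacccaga
Grik1: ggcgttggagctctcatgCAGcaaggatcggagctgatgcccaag
Grik2: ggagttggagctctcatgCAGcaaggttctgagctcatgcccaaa
Grik3: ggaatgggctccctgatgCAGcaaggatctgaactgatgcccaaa
Grik4: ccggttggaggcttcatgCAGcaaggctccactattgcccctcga
Grik5: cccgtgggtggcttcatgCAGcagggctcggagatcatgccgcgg

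The codon was CAG in 8 of the genes and CAA in *Gria4*. Over the window, *Gria3* differed from *Gria2* at 3 bases, *Gria4* at 6 and *Gria1* at 9, while the kainate genes differed from *Gria2* at 15 to 19 bases. The codon is exonic in each gene. In *Gria2* it is codon 607, in exon 11 of 16, at chr3:80706911-80706913 on the minus strand. In *Gria1* it is codon 600, in exon 11 of 16, at chr11:57243094-57243096 on the plus strand. In *Grik1* it is codon 636, in exon 13 of 18, at chr16:87940542-87940544, and in *Grik2* it is codon 621, in exon 13 of 17, at chr10:49244329-49244331, both on the minus strand. Counts per gene do not show whether a transcript was edited, so the values that follow are of edited and unedited transcripts together.

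Over whole translated coding sequences, AMPA subunits shared 68.5% to 74.1% of residues with each other (6 pairs, median 70.8%). The kainate subunits shared 43.9% to 79.6% (10 pairs, median 46.1%), and an AMPA subunit shared 38.9% to 44.1% with a kainate subunit (20 pairs). The exons of the members overlap no gene with counts, apart from small RNA genes that had 0 counts in both libraries and covered under 1% of the exonic bases.

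Expression is given as the deposited counts and FPKM, which sets the count against the kilobases of exonic sequence and the total of the library. The libraries held 18900847 counts (mutant) and 19451827 counts (control). With 1 library per genotype there is no replicate and no test between the genotypes. Each ratio is the mutant library over the control library per library total, with the exact 95% interval that counting error allows (Clopper-Pearson). Such an interval holds no difference between mice, dissections or library preparations. In tissue RNA, fewer cells of a type and less RNA per cell cannot be told apart.

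*Gria1*, encoding the subunit inserted into synapses during plasticity, was the highest of the 9 genes (ENSMUSG00000020524, chr11:57011387-57330244). It had 19132 counts and an FPKM of 167.5 in the mutant library, against 19597 counts and an FPKM of 166.72 in the control library. The values differed by less than counting error, with a ratio of 1.00 (0.985 to 1.02).

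*Gria2*, whose edited product makes AMPA receptors nearly impermeable to calcium, was the second AMPA gene in level (ENSMUSG00000033981, chr3:80681450-80802835). It had 13966 counts and an FPKM of 47.52 in the mutant library, and 16255 counts and an FPKM of 53.75 in the control library. Of the members this was the lowest ratio, at 0.884 (0.864 to 0.905), a log2 ratio of -0.17 with a pseudocount of 1 FPKM. The interval lies below 1, but a ratio of this size was common. Set among the 9034 genes whose summed counts reached the 600 of the member with fewest, 12.01% had a lower ratio than *Gria2*.

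*Gria3*, an X-linked gene whose product mostly pairs with GluA2, had 3790 counts and an FPKM of 20.34 in the mutant library and 4260 counts and an FPKM of 22.21 in the control library (ENSMUSG00000001986, chrX:41400854-41678601). Its ratio was 0.916 (0.876 to 0.957). Since the libraries differ in sex markers, the X chromosome was also read as a whole. Its 494 tested genes had a median log2 ratio of -0.02, against -0.12 for *Gria3*. A median over a chromosome does not show what a single gene does, and the part of sex in the *Gria3* value was not tested. *Gria4*, known for fast receptors of interneurons and for early development, was the lowest AMPA gene (ENSMUSG00000025892, chr9:4417896-4796234). It had 1247 counts and an FPKM of 10.46 in the mutant library against 1375 counts and an FPKM of 11.21 in the control library, with a ratio of 0.933 (0.864 to 1.01) whose interval includes 1.

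Among the kainate genes, *Grik5*, encoding the widely expressed high-affinity subunit GluK5, was the highest (ENSMUSG00000003378, chr7:25009849-25072346). It had 5924 counts and an FPKM of 60.65 in the mutant library and 6075 counts and an FPKM of 60.43 in the control library, with a ratio of 1.00 (0.968 to 1.04). *Grik4*, the other high-affinity gene, is known in CA3 pyramidal and dentate granule cells (ENSMUSG00000032017, chr9:42518135-42944493). It had 1483 counts and an FPKM of 13.16 in the mutant library against 1662 counts and an FPKM of 14.33 in the control library. Its ratio was 0.918 (0.856 to 0.986), the only kainate interval below 1. The CA3 markers summed to an FPKM of 67.5 in the mutant library and 70.7 in the control library, and the dentate granule cell markers to 65.9 in the mutant library and 71.6 in the control library. The part of these cells in the *Grik4* value was not tested.

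The 3 low-affinity genes were lower in level. *Grik3*, whose product forms channels of unusually low glutamate sensitivity, had 1413 counts and an FPKM of 8.33 in the mutant library and 1408 counts and an FPKM of 8.07 in the control library (ENSMUSG00000001985, chr4:125490700-125714173), a ratio of 1.03 (0.959 to 1.11). It lies at the edge of a stretch of chromosome 4, from 125 to 145 Mb. The stretch was set to begin at the megabase that holds the start of *Grik3*. There 12.2% of 255 tested genes were past 1.5-fold lower in the mutant library, against 3.16% of all genes tested. In the same stretch 9 of the 255 genes were past 1.5-fold higher, against 539 of all 14778 genes tested. The median log2 ratio of the stretch was -0.07. *Grik3*, with a log2 ratio of 0.04, was past the limit in neither direction.

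*Grik2*, encoding the subunit GluK2 of mossy fibre synapses, had 1275 counts and an FPKM of 5.09 in the mutant library and 1376 counts and an FPKM of 5.34 in the control library (ENSMUSG00000056073, chr10:49094833-49788766). Its ratio was 0.954 (0.883 to 1.03). The pseudogene row that bears its symbol lies 104 bases from it, is 724 bases long and had 54 counts in the mutant library and 68 in the control library. *Grik1*, known in interneurons, was the lowest of all 9 genes (ENSMUSG00000022935, chr16:87895900-88290265). It had 306 counts and an FPKM of 2.41 in the mutant library and 294 counts and an FPKM of 2.25 in the control library. Its ratio of 1.07 had the widest interval, 0.910 to 1.26.

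**Figure D1:**
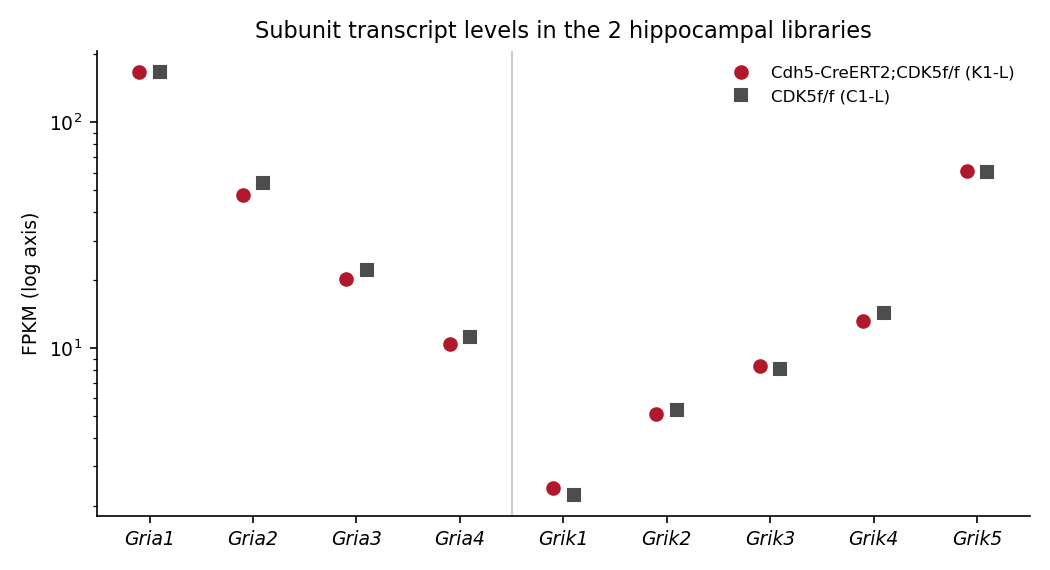
FPKM (log axis) of the 9 subunit genes in the mutant library (red circles, left of each pair) and the control library (grey squares). The order of the genes is the same in both libraries, with *Gria1* highest (167.5 in the mutant library and 166.72 in the control library) and *Grik1* lowest (2.41 in the mutant library and 2.25 in the control library).

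By FPKM, the order of the levels was the same in both libraries. It ran *Gria1*, *Grik5*, *Gria2*, *Gria3*, *Grik4*, *Gria4*, *Grik3*, *Grik2*, *Grik1*. The order rests on division by exonic length. By counts or per coding length *Gria2* stood above *Grik5* in both libraries and *Gria4* below *Grik3*, and per coding length *Grik2* stood above *Gria4* in the mutant library and below it in the control library. By FPKM, the highest level was 69.5 times the lowest in the mutant library and 74.1 times in the control library. Within a family, the AMPA genes spanned 16.0-fold in the mutant library and 14.9-fold in the control library, and the kainate genes 25.2-fold in the mutant library and 26.9-fold in the control library. The members together took 48536 counts, or 0.257%, of the mutant library and 52302 counts, or 0.269%, of the control library.

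None of the 9 members (0 of 9) was past 1.5-fold on the log2(FPKM + 1) scale, against 6.81% of the 14778 genes that reached an FPKM of 1 in one or both libraries. By the counting interval, 3 of 9 lay wholly below 1 (*Gria2*, *Gria3* and *Grik4*), against 17.9% of all genes tested and 20.6% of the 9034 genes with at least 600 counts. None lay wholly above 1, against 19.7% of all genes tested and 21.7% of those 9034. Against a background of that size, neither count is read as a result about the receptors. The median log2 ratio was -0.06 over the members, -0.11 over the AMPA genes, 0.01 over the kainate genes and 0.00 over all genes tested.

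**Figure D2:**
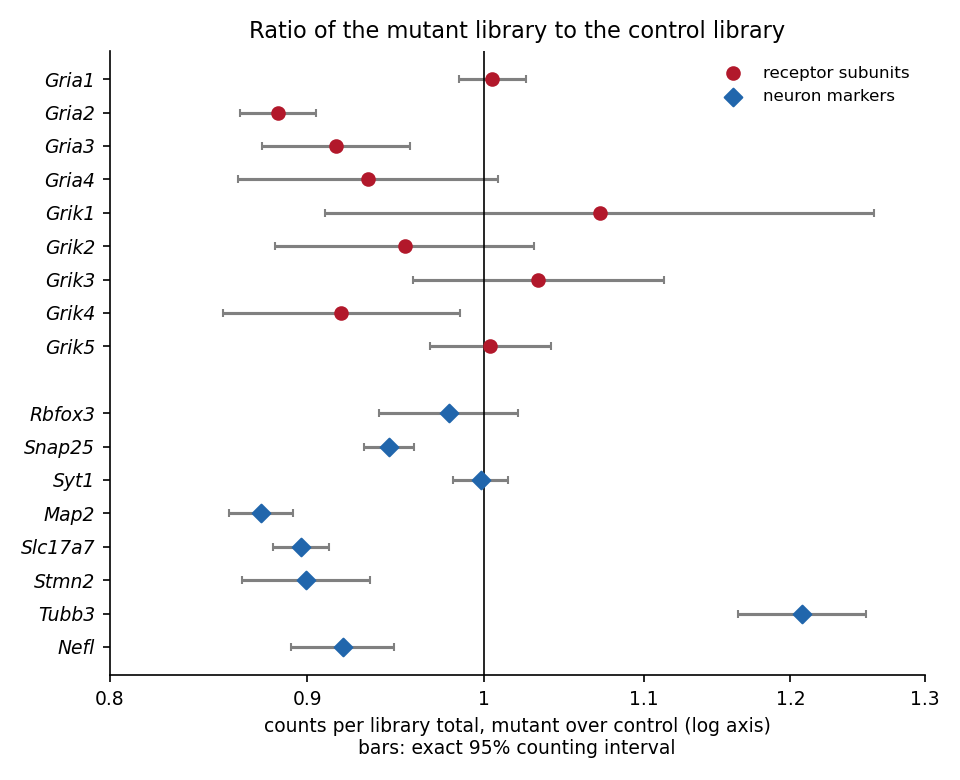
Ratio of the mutant library to the control library (log axis, counts per library total) for the 9 subunit genes (red circles) and 8 neuron markers (blue diamonds), with exact 95% counting intervals as bars. *Gria2*, *Gria3* and *Grik4* lie below 1, as do 5 of the 8 neuron markers. Of the 9034 genes with at least 600 counts, 20.6% lie below 1.

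The members are neuronal genes, so the markers of neurons were set beside them. Of 8 pan-neuronal and excitatory markers, 5 had intervals below 1, among them *Map2*, *Slc17a7* and *Snap25*, and 1, *Tubb3*, lay above 1. Of the 9034 genes with at least 600 counts, 20.6% lay below 1 and 21.7% above. With so few markers, this count is not read as a result about neurons. The median log2 ratio of the 8 markers was -0.10, and their summed FPKM was 1127 in the mutant library and 1170 in the control library. A further scaling used the summed counts of these 8 markers (0.914, mutant over control) in place of the library total. With it, only *Gria2* kept an interval below 1 (ratio 0.940), while *Gria1* (1.07), *Grik3* (1.10) and *Grik5* (1.07) lay above 1. These intervals take the marker sum as exact, while the ratios of single markers per library total ran from 0.875 (*Map2*) to 1.21 (*Tubb3*). That scaling moves the median log2 ratio of all genes to 0.08 and of the members to 0.02, so the direction of single members depends on what they are set against. Other lists moved as well. Astrocyte markers summed to 679 FPKM in the mutant library and 749 FPKM in the control library, and the 9 choroid plexus markers, all past 1.5-fold higher, to 3870 FPKM in the mutant library and 170 FPKM in the control library. Interneuron markers did not follow the 8 neuron markers. Of 12, 4 had intervals above 1 and 2 below, a count set against the same shares and not read as a result about interneurons. Their median log2 ratio was 0.06, and they summed to 815 FPKM in the mutant library and 822 FPKM in the control library. The part of any of these cells in the members' values, *Gria4* and *Grik1* included, was not tested. *Cdk5* itself had 1257 counts in the mutant library and 1261 in the control library, which in RNA of all cell types does not check its loss in endothelial cells.

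To describe the make-up of the receptor families, each gene's FPKM was divided by the family's sum. *Gria1* made up 68.1% (67.7 to 68.6) of AMPA subunit FPKM in the mutant library and 65.7% (65.2 to 66.1) in the control library. *Gria2* made up 19.3% (19.0 to 19.7) in the mutant library and 21.2% (20.8 to 21.5) in the control library. *Gria3* followed with 8.27% in the mutant library and 8.75% in the control library, and *Gria4* with 4.26% in the mutant library and 4.42% in the control library. The share of *Gria1* was thus 2.47 points higher in the mutant library, that of *Gria2* differed by -1.84 points, and for both genes the intervals of the libraries do not overlap. The ratio of *Gria1* itself was 1.00, so its higher share restates the lower ratios of the other AMPA genes. Among all genes tested, 17.9% had counting intervals wholly below 1 and 19.7% wholly above 1. The shares are not read as a further result.

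*Grik5* made up 67.7% (66.8 to 68.5) of kainate subunit FPKM in the mutant library and 66.8% (66.0 to 67.7) in the control library. *Grik4* made up 14.7% (14.0 to 15.4) in the mutant library and 15.8% (15.1 to 16.6) in the control library. For both genes the intervals overlap. The low-affinity genes followed, with *Grik3* at 9.29% in the mutant library and 8.92% in the control library, *Grik2* at 5.68% in the mutant library and 5.91% in the control library, and *Grik1* at 2.69% in the mutant library and 2.49% in the control library. Together the high-affinity genes *Grik4* and *Grik5* were 82.3% of kainate FPKM in the mutant library and 82.7% in the control library.

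**Figure D3:**
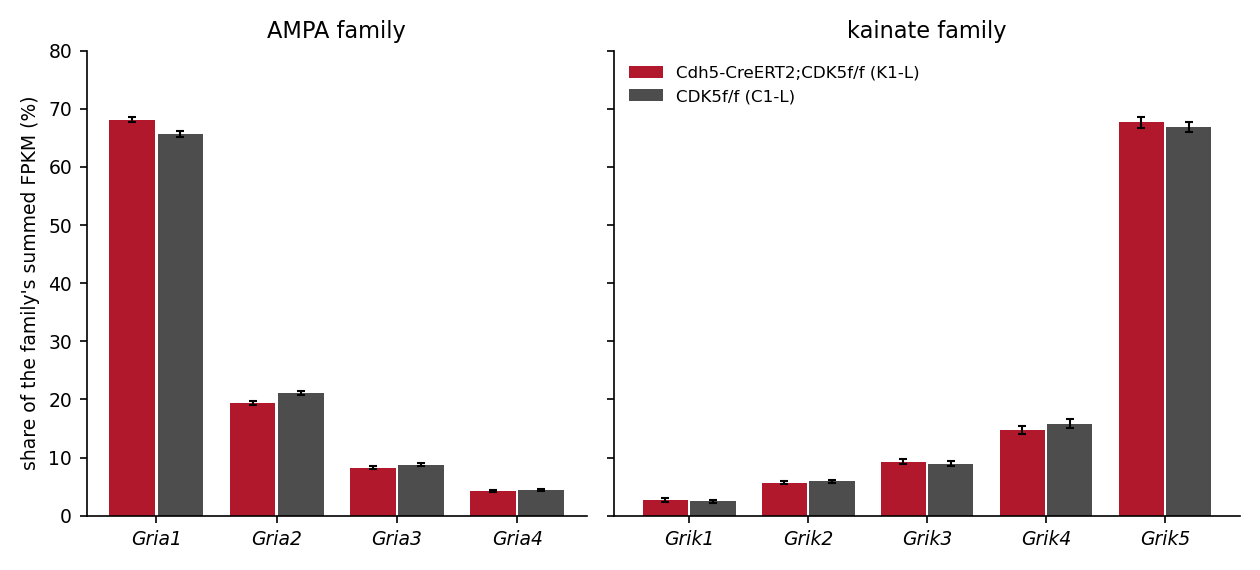
Share of each subunit gene in its family's summed FPKM (percent), for the mutant library (red, left) and the control library (grey, right), with 95% counting intervals as bars. *Gria1* takes 68.1% of the AMPA family in the mutant library and 65.7% in the control library, and *Grik5* takes 67.7% of the kainate family in the mutant library and 66.8% in the control library.

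Summed over the family, AMPA subunits reached 246 FPKM in the mutant library and 254 FPKM in the control library, a ratio of 0.968 (0.954 to 0.983). Without *Gria2*, the other AMPA genes summed to 198 FPKM in the mutant library and 200 FPKM in the control library, with a ratio of 0.991 (0.973 to 1.01) that includes 1. That sum is mostly *Gria1* (167.5 FPKM in the mutant library, ratio 1.00), and the gene left out has the lowest ratio. The sum without *Gria2* therefore does not place the family difference in *Gria2* alone, as *Gria3* (0.916) also had an interval below 1. Of the 4 AMPA genes, *Gria2* had the largest difference in FPKM between the libraries. The kainate sum was 89.6 FPKM in the mutant library and 90.4 FPKM in the control library, a ratio of 0.991 (0.964 to 1.02). The 3 low-affinity genes had a summed ratio of 1.01 (0.960 to 1.06) and the high-affinity pair 0.987 (0.956 to 1.02). AMPA subunits were 2.74 times the kainate subunits in the mutant library and 2.81 times in the control library.

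Ratios between members within a library do not depend on the scaling of the library. *Gria1* had 3.52 times the FPKM of *Gria2* in the mutant library and 3.10 times in the control library, so that the ratio was 1.14 times as high in the mutant library (exact 95% counting interval 1.10 to 1.17). *Gria1* over *Gria3* was 8.24 in the mutant library and 7.51 in the control library (1.10 times, 1.05 to 1.15). *Gria2* over *Gria3* differed by less than counting error (0.966 times, 0.919 to 1.01), as did *Gria2* over *Gria4* (0.947 times, 0.874 to 1.03). The pairs that differed by more than counting error were 2 of the 6 AMPA pairs, and both hold *Gria1*. As the ratio of *Gria1* itself was 1.00, these pairs restate the single ratios of *Gria2* and *Gria3*, and they are not read as a further result. No difference between *Gria2* and *Gria3* or *Gria4* was detectable at this depth.

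Of the 10 kainate pairs, 2 differed by more than counting error, and both hold *Grik4*. They likewise restate the single ratios of the genes they hold, 0.918 for *Grik4*, 1.03 for *Grik3* and 1.00 for *Grik5*. The pairs of *Grik4* with *Grik1* and with *Grik2* had intervals that include 1. *Grik3* over *Grik4* was 0.633 in the mutant library and 0.563 in the control library (1.12 times, 1.01 to 1.25), and *Grik4* over *Grik5* was 0.217 in the mutant library and 0.237 in the control library (0.915 times, 0.845 to 0.991). Both intervals come close to 1.

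The shares of a family depend on the length by which counts are divided, and *Gria2* has the longest exonic sequence of the members. It holds 15548 bases, against 6043 bases for *Gria1*, while their coding lengths are 2652 and 2724 bases. Divided by coding length, *Gria1* was 49.6% of the AMPA family in the mutant library and 46.6% in the control library, and *Gria2* was 37.2% in the mutant library and 39.7% in the control library. *Gria1* was the highest AMPA gene under each of the 4 ways of setting the length. Its share was also higher in the mutant library under each, but the same length divides both libraries. As *Gria1* had the highest ratio of the AMPA genes, that direction was fixed for any lengths and is no further support. The kainate shares moved too. Divided by coding length, *Grik2* was 12.9% in the mutant library and 13.4% in the control library, and *Grik3* was 14.1% in the mutant library and 13.6% in the control library. The 3 low-affinity genes together were then 30.0% of the kainate family in the mutant library and 29.7% in the control library, against 17.7% in the mutant library and 17.3% in the control library by FPKM. Which length fits these libraries was not tested.

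**Figure D4:**
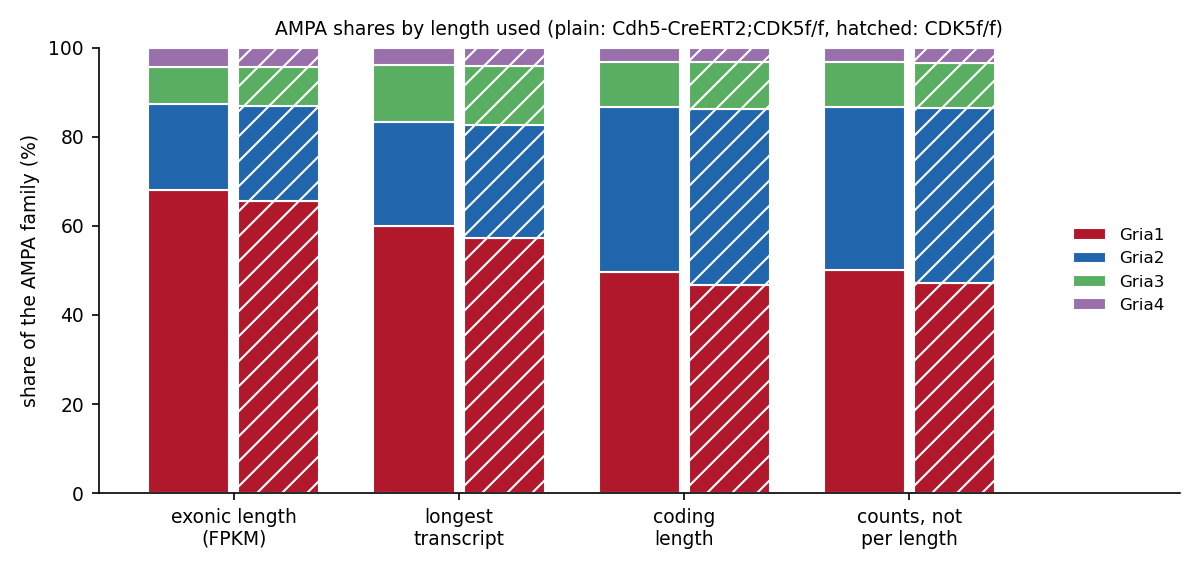
Shares of *Gria1* to *Gria4* in the AMPA family (percent) when counts are divided by exonic length, by the longest transcript, by coding length, or not at all, with the mutant library plain on the left and the control library hatched on the right. The *Gria1* share lies between 49.6% and 68.1% in the mutant library and between 46.6% and 65.7% in the control library.

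To see whether genes that build, move and anchor these receptors differed, 49 partner genes in 6 lists were read in the same way. Of these 46 were tested, 0 were past 1.5-fold, 9 had intervals above 1 and 13 below 1, and the median log2 ratio was -0.03. Among all genes tested, 19.7% had intervals above 1 and 17.9% below 1. Of the 9034 genes with at least 600 counts, 21.7% lay above 1 and 20.6% below. With few genes in each list, no count of intervals by list is read as a result about the receptors.

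AMPA auxiliary subunits slow the closing of the channel and carry it to the synapse. Of 14 tested of 16, 3 intervals lay above 1 and 1 below, against 19.7% above and 17.9% below of all genes tested. *Cnih2*, encoding a cornichon that is abundant on hippocampal AMPA receptors, was the highest and lay below 1. It had 7055 counts and an FPKM of 272.65 in the mutant library against 8326 counts and an FPKM of 312.66 in the control library, with a ratio of 0.872 (0.845 to 0.900). *Gsg1l*, whose product is known to dampen AMPA currents, had the largest ratio of the partners. It had 1036 counts and an FPKM of 13.97 in the mutant library against 692 counts and an FPKM of 9.07 in the control library, a ratio of 1.54 (1.40 to 1.70), and its log2 ratio of 0.57 was just inside the 1.5-fold limit because of the pseudocount. *Prrt1*, encoding the AMPA receptor protein SynDIG4, had 4923 counts in the mutant library and 4515 in the control library (1.12, 1.08 to 1.17). *Shisa8* was too low to judge, with 55 counts in the mutant library and 47 in the control library.

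The TARP genes are the classical auxiliary subunits. *Cacng2*, encoding stargazin, had an FPKM of 11.75 in the mutant library and 11.61 in the control library (ratio 1.01). *Cacng3* had an FPKM of 21.8 in the mutant library and 21.38 in the control library (1.02). *Cacng4* had an FPKM of 5.76 in the mutant library and 5.38 in the control library (1.07), and *Cacng5* an FPKM of 3.59 in the mutant library and 3.71 in the control library (0.966). None of these 4 had an interval off 1. *Cacng8*, whose product is known as the most abundant TARP of the hippocampus, and *Cacng7* had 0 counts in both libraries, where 3 counts would be an FPKM of 0.0677 for *Cacng8* in the mutant library and 0.0658 in the control library. The zeros belong to a stretch of chromosome 7, from 3046372 to 3475020. Its bounds were set by extending from *Cacng8* over neighbouring gene rows with at most 3 counts in each library. Low counts within it therefore follow from that rule. In it, 31 of 34 consecutive gene rows were at 0 in both libraries. The whole stretch held 4 counts in the mutant library and 6 in the control library. No level of these TARP genes is read from the zeros, and what emptied the stretch was not tested.

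Both kainate auxiliary subunits (2 of 2) had intervals below 1, against 20.6% of the 9034 genes with at least 600 counts. Of the 8 neuron markers, 5 also lay below 1. With so few genes, this count is not read as a result about the receptors. *Neto1*, which slows GluK2 channels at mossy fibre synapses, had 2680 counts and an FPKM of 16.98 in the mutant library against 3322 counts and an FPKM of 20.45 in the control library, a ratio of 0.830 (0.789 to 0.874). *Neto2* had 822 counts and an FPKM of 7.1 in the mutant library against 994 counts and an FPKM of 8.34 in the control library, a ratio of 0.851 (0.775 to 0.934). Both ratios were lower than that of every member.

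Of the 8 assembly genes, 3 intervals lay above 1 and 3 below, against 19.7% above and 17.9% below of all genes tested. *Abhd6*, whose product restrains AMPA receptor delivery, had 1218 counts in the mutant library and 1051 in the control library (1.19, 1.10 to 1.30). *Frrs1l*, needed for receptor assembly in the endoplasmic reticulum, had 6570 counts in the mutant library and 7409 in the control library (0.913, 0.883 to 0.944), and *Abhd12* had 5142 counts in the mutant library and 5985 in the control library (0.884, 0.852 to 0.918). The olfactomedins are secreted proteins found with AMPA receptors. *Olfm2* had 868 counts in the mutant library and 614 in the control library (1.45, 1.31 to 1.62), while the more abundant *Olfm1* had 17778 counts in the mutant library and 18985 in the control library (0.964).

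Of the 18 trafficking and scaffold genes, 2 intervals lay above 1 and 7 below, with a median log2 ratio of -0.04. Among all genes tested, 19.7% lay above and 17.9% below, and the list's count is not read as a result about the receptors. *Nptxr*, a neuronal pentraxin receptor that gathers AMPA receptors, was the highest, with 19478 counts in the mutant library and 21828 in the control library (0.918, 0.901 to 0.936). Of its exonic bases, 17.2% are shared with *Npcd*. *Dlg2*, encoding the scaffold PSD-93, had a ratio of 0.893 (0.863 to 0.924), and *Epb41l1*, encoding a cytoskeletal linker of GluA1, 0.901 (0.878 to 0.925). Above 1 lay the synaptic organizer genes *Lrrtm4* (1.19, 1.01 to 1.41) and *C1ql3* (1.13, 1.03 to 1.25). Both share exonic bases with other genes, 25.1% of them in *Lrrtm4* and 64.2% in *C1ql3*, so their counts are uncertain.

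Of the editing enzymes, *Adarb1* encodes ADAR2, which is known to recode the codon shown above in *Gria2* and in part of the *Grik1* and *Grik2* transcripts. It had 5177 counts and an FPKM of 24.3 in the mutant library against 4670 counts and an FPKM of 21.3 in the control library, a ratio of 1.14 (1.10 to 1.19). *Adar*, encoding the more general ADAR1, had 3330 counts in the mutant library and 3523 in the control library (0.973, with 16.8% of its exonic bases shared with *Chrnb2*), and *Adarb2*, encoding a form without known activity, 444 counts in the mutant library and 425 in the control library (1.08). Both of these intervals include 1. *Grid1*, the one delta receptor gene tested, had a ratio of 0.958.

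**Figure D5:**
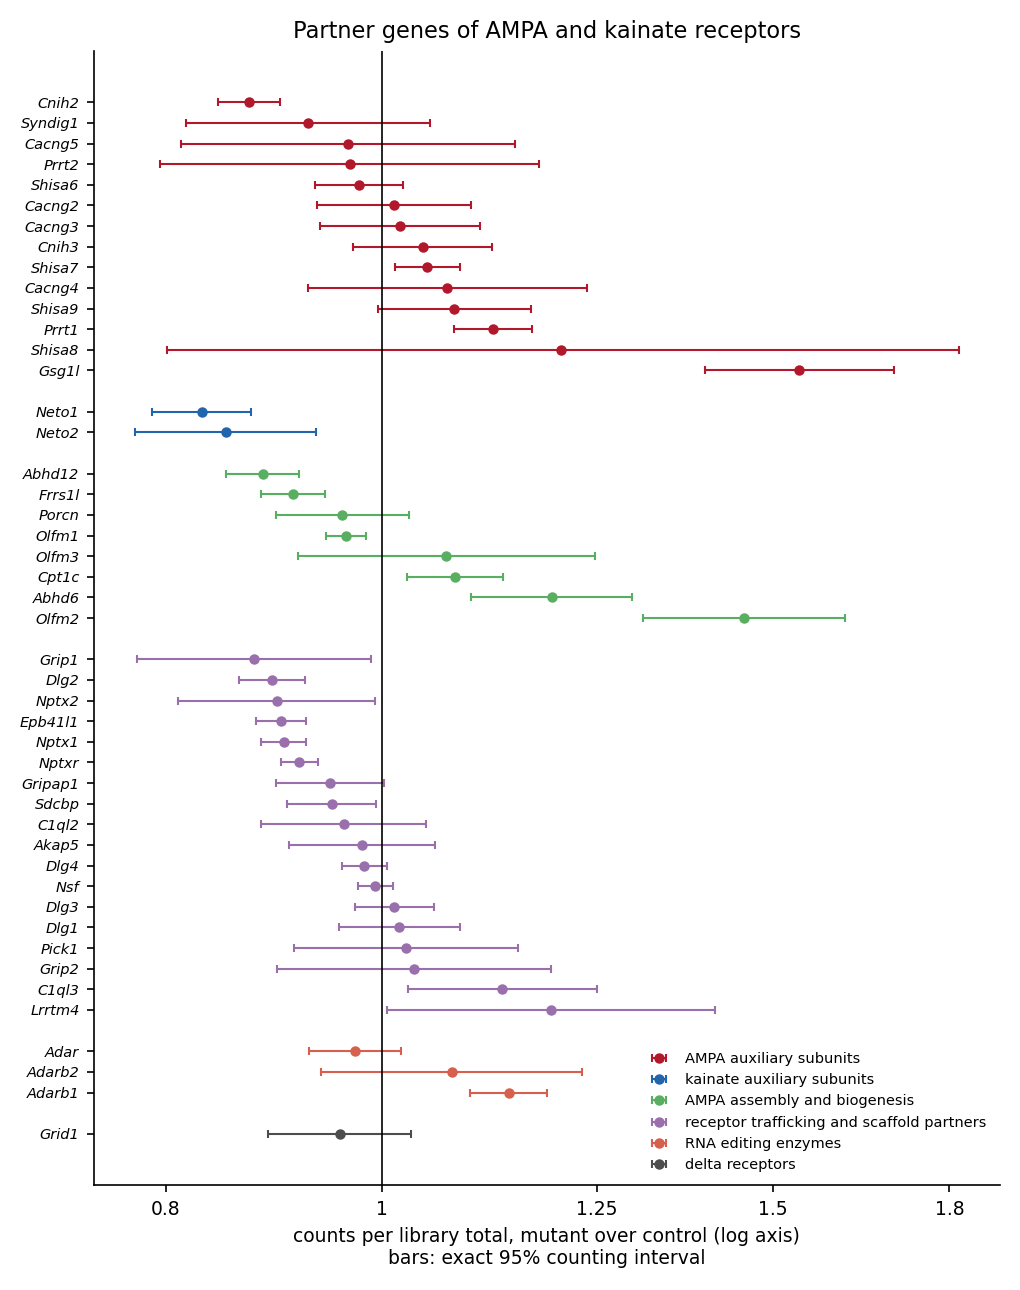
Ratio of the mutant library to the control library (log axis, counts per library total) for the 46 partner genes tested, in 6 lists by colour, with exact 95% counting intervals as bars. *Gsg1l* (1.54) and *Olfm2* (1.45) lie farthest above 1, and *Neto1* (0.830) and *Neto2* (0.851) farthest below.

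In the annotation that comes with the counts, all 9 members carry the Gene Ontology terms postsynaptic membrane, shared by 206 gene rows, and cell junction. Postsynaptic density, with 186 rows, lists 6 of them, without *Grik1*, *Grik3* and *Grik4*. The term for the kainate receptor complex lists *Gria4* but not *Grik3*, so lists of synaptic genes drawn from this annotation hold the families unevenly.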

How the data were processed

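Poly(A) mRNA isolation or rRNA removal preceded library preparation, per the labels, which do not say which was used here. Raw gene counts and FPKM values were deposited by the authors, and the FPKM equals the count over exonic length and library total, to rounding. Build mm9, DESeq2, HTSeq 0.6.1, HISAT2 2.0.1 and cutadapt 1.9.1 are named in the submitters' processing notes. The coordinates of all 9 members, however, match GENCODE M21 on GRCm38, and that build is used. The sources used here do not say whether reads were counted by strand.

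Genes that reached an FPKM of 1 in one or both libraries were tested against a 1.5-fold limit on log2(FPKM + 1). Single genes were given the exact conditional 95% interval of their ratio, FPKM shares an interval from Poisson counting error, and pairs of genes an exact conditional odds ratio interval. Intervals cover counting error only. No p-value was computed. Within a partner list, the named genes are the 4 with the largest absolute log2 ratios among those with at least 100 counts, the highest by FPKM, the *Cacng* and *Neto* genes and *Adarb1*. Lists of at most 3 genes are named whole where tested. The members, lists and rules were chosen with earlier results of these data known. The single-gene interval, the 1.5-fold limit and the share interval were run on simulated Poisson counts. Those counts hold counting error only, as the intervals assume, so the simulation does not bear on differences between mice or libraries. The other steps were not simulated. Proteins were translated from GENCODE M21 coding sequences and aligned globally (BLOSUM62). Alternatives were other lengths, pseudocounts, FPKM minimums and scalings. R 4.3.3, edgeR 4.0.16, DESeq2 1.42.0, Biopython 1.88, matplotlib 3.10.9, pandas 2.3.3, scipy 1.17.1, numpy 2.4.6 and Python 3.11.15 were used.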

Additional observations from a re-analysis of the deposited data

How the results depend on the processing

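No paired analysis was possible because each genotype has 1 library. Shares moved with the length used, but for *Gria1*, *Gria2* and *Grik5* the mutant and control libraries kept their order. For *Gria1* and *Gria2*, with the highest and the lowest ratio of the AMPA genes, no choice of length could change that order. With the longest transcript, *Gria1* was 59.9% in the mutant library and 57.2% in the control library, *Gria2* 23.4% in the mutant library and 25.4% in the control library, and *Grik5* 71.5% in the mutant library and 70.8% in the control library. With counts not divided by length, *Gria1* was 50.2% in the mutant library and 47.2% in the control library, *Gria2* 36.6% in the mutant library and 39.2% in the control library, and *Grik5* 57.0% in the mutant library and 56.2% in the control library. With coding length, an alternative chosen after seeing the data, *Gria1* was 49.6% in the mutant library and 46.6% in the control library, *Gria2* 37.2% in the mutant library and 39.7% in the control library, and *Grik5* 55.7% in the mutant library and 54.9% in the control library.

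No member was past 1.5-fold under any setting run, where an FPKM minimum of 5 left 8 of the 9 to test, without *Grik1*. A pseudocount of 0.1 put 1 partner gene past 1.5-fold (*Gsg1l*). Scaling to the 8 neuron markers, also chosen after seeing the data, put 2 there (*Gsg1l* and *Olfm2*). Over all genes, 1006 were past 1.5-fold, 1736 with a pseudocount of 0.1 and 293 with an FPKM minimum of 5. The ratio of *Gria1* was 0.997 and that of *Grik5* 0.996 with DESeq2 size factors, both on the other side of 1, and *Grik2* passed 1 (1.01) when scaled to the neuron markers. The members with intervals below 1 were the same 3 with DESeq2 and TMM scaling. Depth limits *Grik1* most, with the fewest counts and the widest interval. Nothing measured here separates a difference between genotypes from one between mice or dissections.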

Other observations

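The empty stretch of chromosome 7 that holds *Cacng7* and *Cacng8* also holds *Cacng6*, a related gene known from muscle, at 0 counts in both libraries. *Myadm*, in the same stretch, had 2 counts in the mutant library and 3 in the control library. No row of the stretch had more than 3 counts in a library, which is the rule that set its bounds. The cause was not tested.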
